A study of Mus musculus with 6 samples.

Results

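Nfia, Nfib, Nfic and Nfix, the 4 genes of the nuclear factor I (NFI) family, were followed through every probe set of the array that its gene table pairs with 1 of these symbols alone. These were 23 of 45037 probe sets without controls, 6 for Nfia, 7 for Nfib, 5 for Nfic and 5 for Nfix, and the 4 genes were 4 of the 18193 with such a probe set. The main value of a gene came from its brightest probe set on average over the 6 arrays, a choice that did not use the difference between the groups. The samples were mouse lung cells purified by sorting, 3 adult and 3 fetal, each hybridized to 1 Affymetrix 3' expression array. The adult samples were Lyz2+/EpCAM+ cells of adult lungs, which the series calls ATII (alveolar type II) cells, and the fetal samples were Muc1+/Pdpn+ cells of lungs at embryonic day 18 (E18), which it calls bipotent progenitors. No treatment or engineered allele is named for either group, strain and sex are not given in the sources used here, and age and sorted population differ together. The labels call the 3 samples of a group biological replicates without saying whether animals were pooled.

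NFI proteins are transcription factors that bind DNA as dimers, through a conserved amino-terminal domain, at a palindrome whose arm reads TTGGC, and the 4 mammalian genes make proteins that can pair with one another. Nfib is the member best known in the lung: mice without it die at birth with immature lungs, and it is expressed in both the epithelium and the mesenchyme of the fetal lung. Nfia and Nfix are best known from glial and neural development and muscle, and Nfic from tooth root formation.

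Nfib and Nfia were lower in the adult arrays, while Nfic and Nfix did not pass the test. On the main probe sets Nfib was 9.70-fold lower and Nfia 4.67-fold lower. Of the 4 genes 2 were therefore lower, 0 higher and 2 not called at an adjusted p under 0.05, in a comparison where 4.57% of all 13335 genes tested were lower and 5.98% were called in either direction. Each gene was compared with limma's linear model on log2 signals, two-sided, with Benjamini-Hochberg adjustment over all genes tested, and differences are adult minus E18 on the log2 scale. Over all genes tested the median difference was -0.17, which quantile normalization moved to -0.05 and median centring of the arrays to -0.02.

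**Figure D1:**
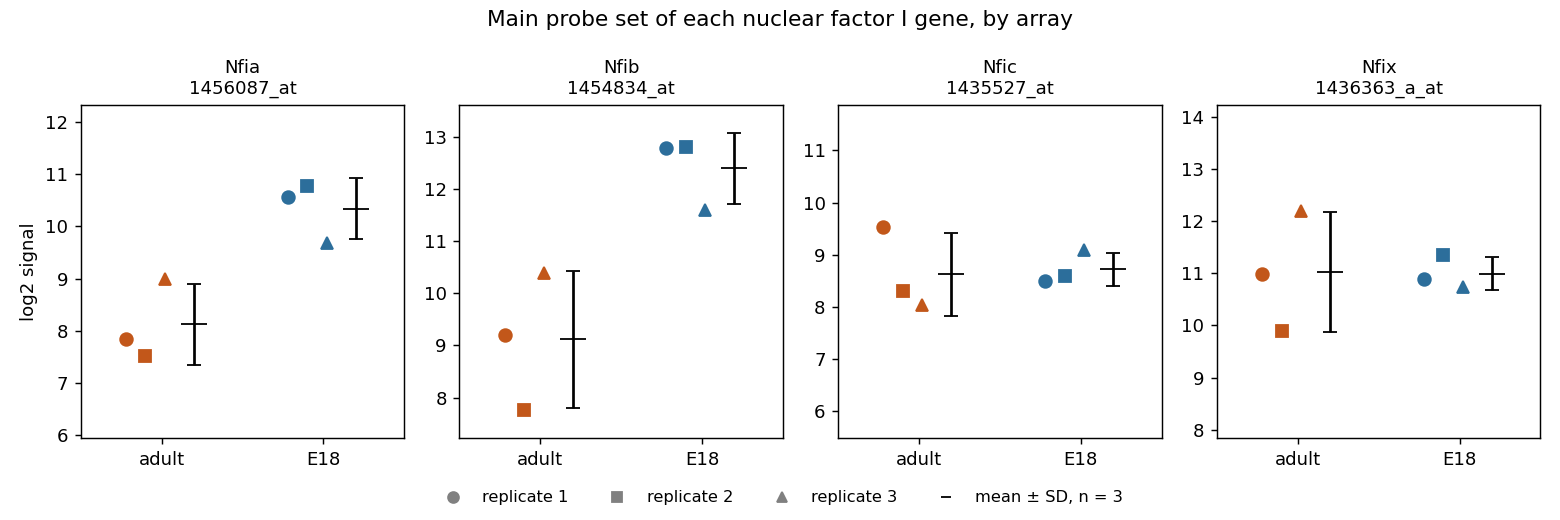
Log2 signal (vertical axis) of the main probe set of Nfia, Nfib, Nfic and Nfix in adult (left) and E18 (right) arrays; points are arrays, shaped by replicate, and bars are the mean ± SD of 3 arrays. The adult and E18 points do not overlap for Nfia and Nfib and overlap for Nfic and Nfix; each panel spans the same number of log2 units, and heights are not comparable between panels.

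Nfib had log2 signals of 9.21, 7.75 and 10.38 in adult replicates 1, 2 and 3, against 12.77, 12.80 and 11.61 in E18 replicates 1, 2 and 3 (probe set 1454834_at). All adult arrays lay below all E18 arrays, with adult replicate 3 the highest of the adult arrays and E18 replicate 3 the lowest of the E18 arrays. The means were 9.11 ± 1.32 in adult arrays and 12.39 ± 0.68 in E18 arrays (SD, n = 3 each), a difference of -3.28 (SE 0.67, limma adjusted p = 0.0335). Every array stood above the detection floor, which is the 40th percentile of all probe sets on that array and marks a rank, not a measured background.

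Nfia had log2 signals of 7.84, 7.52 and 8.99 in adult replicates 1, 2 and 3, against 10.56, 10.78 and 9.68 in E18 replicates 1, 2 and 3 (probe set 1456087_at). As for Nfib, the groups did not overlap, and the replicates numbered 3 of both groups stood closest to each other. The means were 8.12 ± 0.77 in adult arrays and 10.34 ± 0.58 in E18 arrays, a difference of -2.22 (SE 0.49, limma adjusted p = 0.0427). For 18.8% of all genes tested the adult arrays likewise lay entirely below the E18 arrays, so the absence of overlap alone does not set these genes apart.

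Nfic had log2 signals of 9.53, 8.31 and 8.03 in adult replicates 1, 2 and 3, against 8.50, 8.59 and 9.09 in E18 replicates 1, 2 and 3 (probe set 1435527_at). The groups overlapped, with adult replicate 1 the highest array and adult replicate 3 the lowest. The difference was -0.10 (SE 0.46, limma adjusted p = 0.922), with a 95% confidence interval from -1.17 to 0.97, and its sign turned under quantile normalization (0.14) and median centring (0.05).

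Nfix had log2 signals of 10.98, 9.90 and 12.19 in adult replicates 1, 2 and 3, against 10.88, 11.35 and 10.75 in E18 replicates 1, 2 and 3 (probe set 1436363_a_at). The adult arrays spread on both sides of the E18 arrays, with adult replicate 2 the lowest of the 6 arrays and adult replicate 3 the highest. The difference was 0.03 (SE 0.56, limma adjusted p = 0.979), with a 95% confidence interval from -1.27 to 1.33, so a change of about 2-fold either way lies within it. Its sign turned without adult replicate 3, where it was -0.56 (adjusted p = 0.357).

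The difference between members was then tested directly, as the log2 ratio of their main probe sets within each array. The adult minus E18 difference of Nfib was more negative than that of Nfix by 3.31 and than that of Nfic by 3.18, and that of Nfia was more negative than that of Nfix by 2.25. For these 3 pairs the ratios of adult and E18 arrays did not overlap, and the exact two-sided permutation p was 0.10, the smallest that 3 arrays against 3 allow. Nfib also differed from Nfia in the same way, its difference being the more negative by 1.06 (exact permutation p = 0.10). Nfia against Nfic differed by -2.12 (exact permutation p = 0.20), and Nfic against Nfix by -0.13 (exact permutation p = 1). After Benjamini-Hochberg adjustment over the 6 pairs the lowest value was 0.15, so this permutation test cannot place a difference between members under 0.05.

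Of the 23 probe sets, 17 reached the floor on at least 3 of the 6 arrays and were tested in a fit over all 28104 probe sets that did so. Those 17 counted 4 lower, 0 higher and 13 not called, where 3.05% of all probe sets tested were lower and 0.904% higher. The 4 called were 3 for Nfib and 1 for Nfia. The gene table gives 22 of the 23 a source sequence, and 11 of those share theirs with another probe set, so probe sets of 1 gene are not independent readings. In Affymetrix names the ending _a_at marks probes shared by transcripts of 1 gene, and _s_at and _x_at mark probes that may match other genes.

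**Figure D2:**
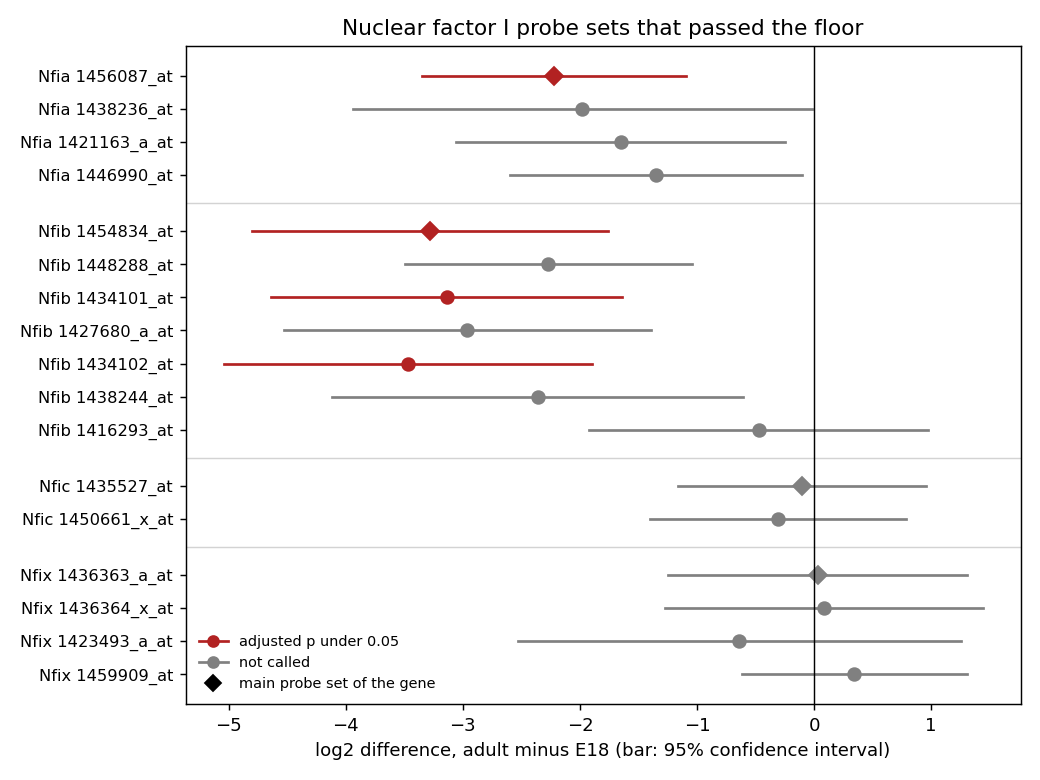
Log2 difference, adult minus E18 (horizontal axis), of the 17 probe sets that passed the floor, grouped by gene and ordered by brightness; bars are 95% confidence intervals, diamonds the main probe sets, and red an adjusted p under 0.05. Nfib and Nfia probe sets lie to the left of 0, although the interval of 1416293_at of Nfib includes 0. Those of Nfic and Nfix lie around it with intervals that include 0.

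All 7 Nfib probe sets passed the floor, with differences from -3.47 to -0.47 and a median of -2.96. The 3 called, 1454834_at, 1434101_at and 1434102_at, were designed on the same source sequence. Probe set 1434102_at had log2 signals of 6.88, 5.59 and 8.40 in adult replicates 1, 2 and 3, against 10.69, 10.80 and 9.78 in E18 replicates 1, 2 and 3, the largest difference of any NFI probe set (-3.47, SE 0.68, limma adjusted p = 0.0325). Probe set 1434101_at gave a difference of -3.14 (limma adjusted p = 0.0388). The second brightest, 1448288_at, had 9.22, 8.40 and 10.57 in adult arrays against 11.72, 11.88 and 11.40 in E18 arrays and missed the threshold at -2.27 (limma adjusted p = 0.0586). So did 1427680_a_at, at -2.96 (limma adjusted p = 0.0550). For both, all adult arrays lay below all E18 arrays, as they did for 6 of the 7 Nfib probe sets and for 16.4% of all probe sets tested. One of the 6, 1438244_at, reached the floor on 1 adult and 3 E18 arrays. Its E18 arrays alone let it pass the filter, so its lack of overlap adds no support.

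Probe set 1416293_at, to which the gene table gives the same source sequence as 1448288_at, stood close to the floor in both groups. It had log2 signals of 4.31, 5.69 and 6.27 in adult arrays against 5.99, 5.75 and 5.96 in E18 arrays, near or under floors of 5.80, 5.40 and 6.05 on the adult arrays and 5.74, 5.65 and 6.10 on the E18 arrays. Its groups overlapped, and its difference was -0.47 (limma adjusted p = 0.733). At such signals a change cannot be read from it, and with low values raised to the floor its difference was -0.022. Across the family 34 pairs of probe sets of the same gene were compared, 10 of them, all within Nfib and 6 of those with 1416293_at, at the smallest exact permutation p of 0.10, and the lowest adjusted value was 0.34.

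Of the 6 Nfia probe sets 4 passed the floor, with differences from -2.22 to -1.35. Probe set 1438236_at had 6.60, 5.31 and 9.06 in adult arrays against 8.67, 8.86 and 9.38 in E18 arrays, so that adult replicate 3 stood among the E18 arrays while the other adult arrays lay at least 2 log2 units below every E18 array. Its difference was -1.98 (limma adjusted p = 0.261). Probe sets 1421163_a_at and 1446990_at gave -1.65 and -1.35 (limma adjusted p = 0.196 and 0.229). Of these, 1446990_at reached the floor on 1 adult and 3 E18 arrays, so its E18 arrays alone let it pass the filter and its difference adds no support. Both remaining Nfia probe sets, 1427733_a_at and 1421162_a_at, were under the floor on all 6 arrays, at log2 signals of 4.33 to 5.41 and 1.62 to 2.87.

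Of the 5 Nfic probe sets 2 passed the floor, and besides the main one this was 1450661_x_at, at 6.79, 6.55 and 7.01 in adult arrays against 6.41, 6.96 and 7.91 in E18 arrays (-0.31, limma adjusted p = 0.774). The groups overlapped. The other 3, 1427665_a_at, 1429148_at and 1422565_s_at, reached the floor on 2, 0 and 0 arrays and give no comparison.

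Of the 5 Nfix probe sets 4 passed the floor, with differences from -0.64 to 0.34. Probe set 1436364_x_at, of the same source as the main one, tracked it at 10.53, 9.50 and 11.91 in adult arrays against 10.57, 11.00 and 10.13 in E18 arrays (0.08, limma adjusted p = 0.956). Probe set 1423493_a_at was at 7.14, 7.94 and 10.73 in adult arrays against 9.24, 9.15 and 9.33 in E18 arrays, so that 2 adult arrays lay below and 1 above all E18 arrays. Its difference was -0.64 over all arrays (limma adjusted p = 0.724) and -1.70 without adult replicate 3 (limma adjusted p = 0.0225). Probe set 1459909_at gave 0.34 (limma adjusted p = 0.706), and 1451443_at was under the floor on all arrays.

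On the main probe sets of Nfia and Nfib alike, replicate 3 was the highest adult array and the lowest E18 array. E18 replicate 3 was instead the highest E18 array for 1438236_at of Nfia and for 1427680_a_at and 1438244_at of Nfib. It stood between the other E18 arrays for 1421163_a_at of Nfia and 1416293_at of Nfib. For the main Nfib probe set adult replicate 3 was 1.90 above the mean of adult replicates 1 and 2, and E18 replicate 3 was 1.18 below the mean of E18 replicates 1 and 2 (log2 units), while adult replicates 1 and 2 also lay apart from each other. For Nfia these offsets were 1.31 above and 0.99 below. Adult minus E18 differences by replicate number were -3.57, -5.04 and -1.22 for Nfib and -2.72, -3.25 and -0.69 for Nfia in replicates 1, 2 and 3. Replicates 3 also carried far higher signals of the added poly-A control transcripts, with array medians of 14.38 and 13.97 against 6.24 to 9.53 on the other arrays, a split that no label names.

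**Figure D3:**
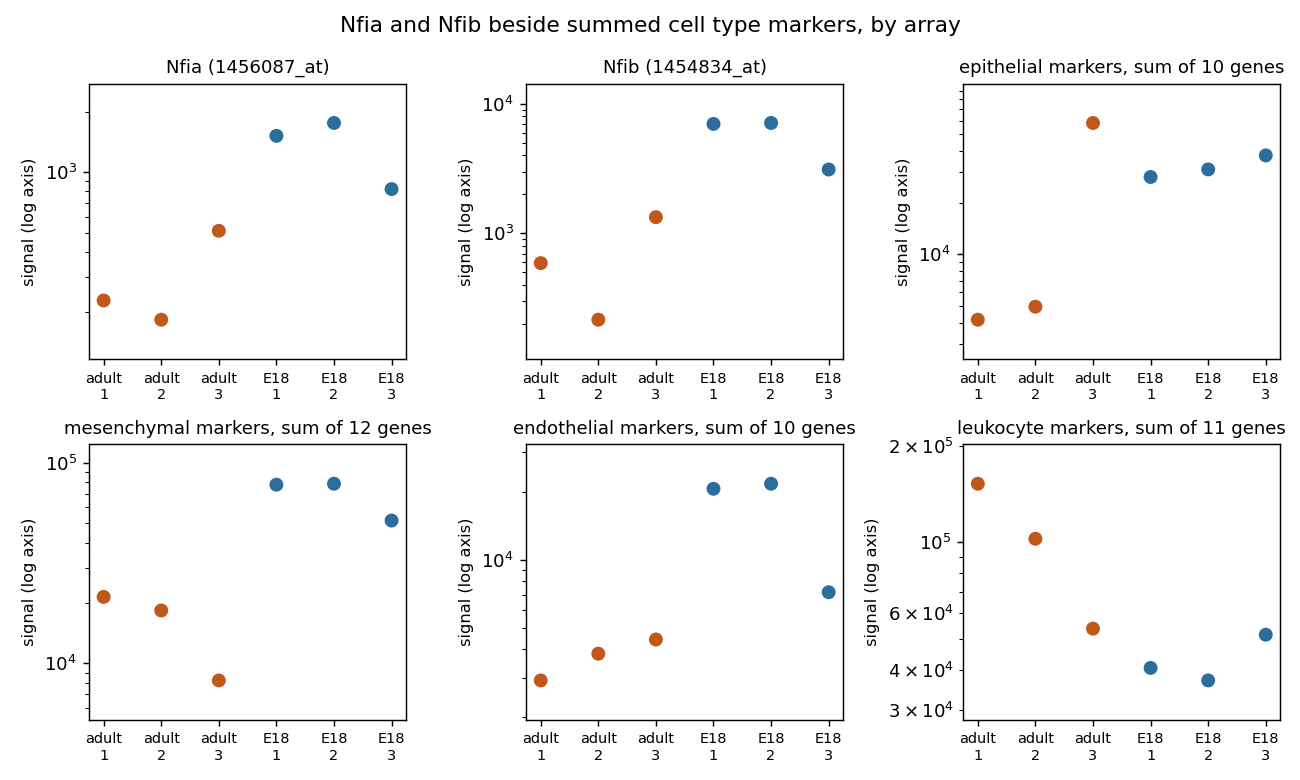
Signal (vertical log axis) of the main probe sets of Nfia and Nfib and summed signal of 4 cell type marker lists, for each adult and E18 array. Adult replicate 3 is the highest adult array for Nfia, Nfib and the epithelial list and the lowest for the mesenchymal and leukocyte lists; E18 arrays are higher than adult arrays throughout for Nfia, Nfib and the mesenchymal and endothelial lists.

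Marker genes of several cell types also differed between the groups or among the arrays of a group. The summed signal of 10 epithelial markers was 4159, 4952 and 58317 in adult replicates 1, 2 and 3, against 28239, 31269 and 37743 in E18 replicates 1, 2 and 3, so that adult replicates 1 and 2, where Nfia and Nfib were lowest, were also those with the least epithelial signal, while adult replicate 3 exceeded every E18 array. Leukocyte markers ran the other way in the adult arrays, with sums over 11 genes of 152523, 102645 and 53762, against 40521, 37032 and 51465 in E18 arrays. Mesenchymal markers summed to 21453, 18364 and 8222 over 12 genes in adult arrays, against 77856, 78718 and 51571 in E18 arrays, and 9 of the 12 were lower in the adult arrays, 0 higher and 3 not called, against 4.57% of all genes lower. Within each group the mesenchymal sum was lowest in replicate 3. The number of mesenchymal markers called was 1 without E18 replicate 1 or E18 replicate 2, 2 without adult replicate 2 and 3 without E18 replicate 3, and 1 to 11 over the 19 other processing settings. Endothelial markers summed to 2913 to 4424 in adult arrays and 7165 to 21694 in E18 arrays, with 4 of 10 genes lower, 0 higher and 6 not called. Type I cell markers, of which Pdpn was used in the E18 sort, summed to 15410 to 22872 over 10 genes in adult arrays, against 65382 to 89659 in E18 arrays, with 6 lower, 0 higher and 4 not called and a median difference of -2.37. Of 11 cell division genes 8 were lower, 0 higher and 3 not called, with sums of 4449 to 6971 in adult arrays against 14893 to 21889 in E18 arrays and a median difference of -2.33. Of 6 mesothelial markers 3 were lower, 0 higher and 3 not called, with a median difference of -2.40. Their sums were 1060 to 7624 in adult arrays against 9080 to 11982 in E18 arrays. The adult sum of 7624, in adult replicate 3, came mostly from Krt19 (log2 signal 12.78), which is also on the epithelial list. Without adult replicate 2, E18 replicate 1 and E18 replicate 2 in turn, the numbers called were 1, 0 and 0 for endothelial, 3, 2 and 2 for type I, 0, 0 and 0 for cell division and 1, 1 and 0 for mesothelial genes. Calls also numbered 3 for type I without E18 replicate 3, 4 for cell division without adult replicate 1 or E18 replicate 3, 2 for endothelial without adult replicate 1 and 5 for mesothelial genes without adult replicate 3. Of the 10 epithelial markers 0 were called with all arrays, 10 without adult replicate 3 and 0 without any other array. Of the 11 leukocyte markers 1 was higher, 0 lower and 10 not called. Without adult replicate 3 the leukocyte calls numbered 8, and without any other array 0 or 1. Leaving out adult replicate 3 also raised the count of genes called over the whole array, from 798 to 2770 of 13335. No marker was at 0, and under the floor were 0, 2 and 5 mesenchymal markers in adult replicates 1, 2 and 3 and 0 in each E18 array. For endothelial markers these counts were 2, 1 and 5 and for mesothelial markers 1, 2 and 3, with 0 in each E18 array. For leukocyte markers they were 4, 2 and 3 in E18 replicates 1, 2 and 3 and 0 in each adult array. Tie1 (endothelial) and Wt1 (mesothelial), both counted as lower, were under the floor on every adult array. Airway markers summed to 104297 in adult replicate 3, the array with the highest Nfix signal, against 19539 and 16179 in adult replicates 1 and 2 and 21044 to 26865 in E18 arrays. The part of these cell types in the differences of Nfia and Nfib was not tested, and in sorted bulk samples fewer cells of a type and less RNA per cell cannot be told apart. Of 9 type II cell markers 1 was lower, 0 higher and 8 not called, with a median difference of -0.05. The one called was Lyz2, one of the adult sort genes, which was 7.27-fold lower in adult than in E18 arrays (limma adjusted p = 0.00303). Epcam, the other adult sort gene, had log2 signals of 7.85, 8.50 and 10.68 in adult replicates 1, 2 and 3. In E18 replicates 1, 2 and 3 it was at 10.69, 11.31 and 9.26 (-1.41, limma adjusted p = 0.359). Sftpc, the surfactant protein C gene, was bright in both groups, at 14.56 ± 0.10 in adult arrays and 14.04 ± 0.14 in E18 arrays.

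The calls of Nfib and Nfia depended on which arrays entered the fit. Nfib no longer passed without adult replicate 1, adult replicate 2, E18 replicate 1, E18 replicate 2 or E18 replicate 3 (limma adjusted p = 0.0938, 0.0837, 0.149, 0.147 and 0.0570), with differences from -3.67 to -2.60. Nfia likewise did not pass without these arrays (limma adjusted p = 0.116, 0.144, 0.190, 0.198 and 0.0559), with differences from -2.55 to -1.92. Without adult replicate 3 both differences widened, to -3.91 for Nfib (limma adjusted p = 0.0048) and -2.66 for Nfia (limma adjusted p = 0.00556). In that setting 11 of the 17 probe sets passed, 6 of 7 for Nfib, 4 of 4 for Nfia, 0 of 2 for Nfic and 1 of 4 for Nfix, while the count of genes called over the whole array was 2770 in place of 798. Within replicates 1 and 2 alone the differences were -4.31 for Nfib and -2.99 for Nfia (limma adjusted p = 0.00851 and 0.00509), and with replicates 3 as a batch term Nfib passed (limma adjusted p = 0.0474) and Nfia did not (limma adjusted p = 0.0569). When all probe sets of a gene that passed the floor were averaged, the differences were -2.56 for Nfib (limma adjusted p = 0.0501) and -1.80 for Nfia (limma adjusted p = 0.119).

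**Figure D4:**
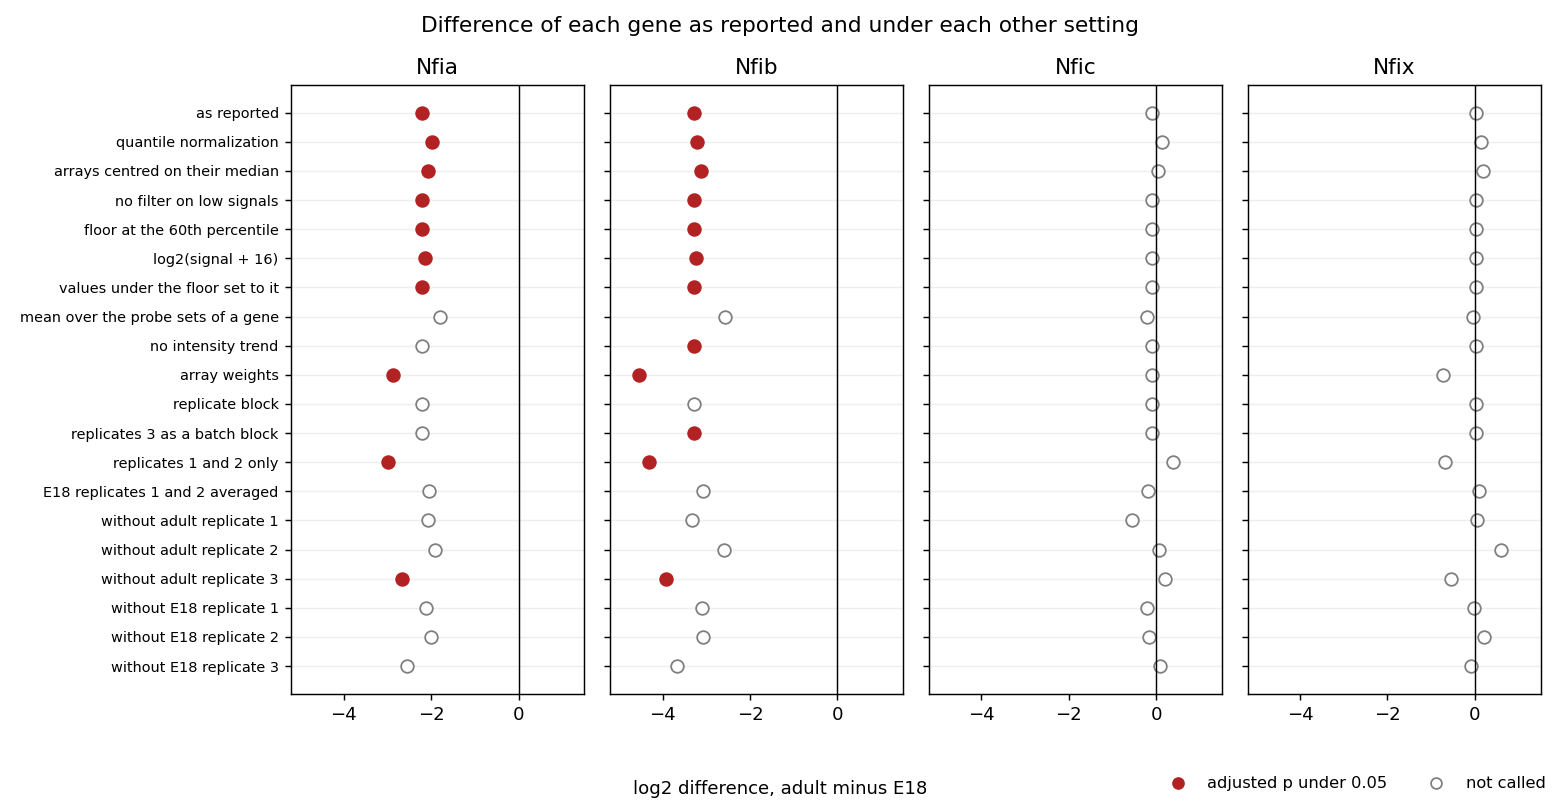
Log2 difference, adult minus E18 (horizontal axis), of each NFI gene as reported (top row) and under the 19 other settings; filled red points have an adjusted p under 0.05. Nfia and Nfib stay to the left of 0 in every row shown, filled in some rows and open in others, and Nfic and Nfix lie on both sides of 0 and are open in every row.

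The genes whose profiles over the 6 arrays lay closest to each member were found by the root mean square difference between profiles centred on their own means, as a description with no test. Closest to Nfib were Ptn, the growth factor pleiotrophin (0.20), Tspan6, a tetraspanin (0.22), Ppp1r3c, a glycogen-targeting phosphatase subunit (0.22), and Igdcc4, an immunoglobulin superfamily receptor (0.24). Closest to Nfia were Rhbdf1, an inactive rhomboid protein (0.15), Rnd3 (0.15), Gstm5, a glutathione transferase (0.15), and Antxr1, a collagen-binding surface receptor (0.17). The differences of these 8 genes ran from -3.41 for Igdcc4 to -2.08 for Rnd3. Ptn, for example, had log2 signals of 6.49, 5.04 and 7.70 in adult arrays, against 10.38, 10.26 and 8.55 in E18 arrays, with replicates 3 of both groups displaced toward each other as for Nfib. Nfia itself ranked at 141 among 13334 genes by likeness to Nfib, and Nfib at 836 by likeness to Nfia.

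Closest to Nfic were Tnrc6b, a protein of microRNA silencing complexes (0.05), Cdkn1b, a cyclin-dependent kinase inhibitor (0.07), Cox4i2, a cytochrome c oxidase subunit (0.13), and Ccdc22 (0.15). Tnrc6b had log2 signals of 10.97, 9.61 and 9.41 in adult arrays, against 9.85, 9.91 and 10.45 in E18 arrays, the same order of arrays within each group as Nfic. Closest to Nfix were Zfp974 (0.20), Gng4, a G protein subunit (0.20), Slc7a4 (0.21) and Atat1, a tubulin acetyltransferase (0.21). Differences of these 8 genes lay between -0.21 and 0.26, and some turned sign with the setting. The profiles of Nfic and Nfix were 0.94 apart.

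Lung epithelial transcription factors, some of which act on the same promoters as NFI proteins, made a list of 14, of which 13 were tested, Nkx2-1 being under the floor. None was called by limma (0 lower, 0 higher), against 5.98% of all genes. At an unadjusted limma p under 0.05 there were 6 lower and 1 higher, where 2883 of all 13335 genes tested passed in either direction. The median difference of the list was -1.61, against -0.17 for all genes. The brightest were Hopx, a homeodomain-only cofactor of type I cells, and Foxp1, a forkhead repressor. Hopx had log2 signals of 12.11, 12.61 and 12.98 in adult arrays, against 13.45, 13.26 and 13.68 in E18 arrays (-0.90, SE 0.31, limma adjusted p = 0.148). Foxp1 had 14.03, 12.52 and 11.84 in adult arrays, against 11.34, 11.30 and 11.00 in E18 arrays (1.58, SE 0.53, limma adjusted p = 0.141). The groups did not overlap for either gene. Without adult replicate 3, 10 of the list were called, among them Hopx (-1.10, limma adjusted p = 0.0393) and Foxp1 (2.06, limma adjusted p = 0.0215). Both were also called with array weights (limma adjusted p = 0.011 and 0.00445). Over the whole array 2770 of 13335 genes were called without adult replicate 3 and 4916 with array weights.

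Genes of alveolar maturation, the process that fails in lungs lacking Nfib, were mostly not called: 2 of the 12 tested fell, none rose and 10 were not called, against 4.57% of all genes lower and 5.98% called either way. At an unadjusted limma p under 0.05 there were 4 lower and 1 higher, where 2883 of all 13335 genes tested passed in either direction. The median difference was -0.13. The number called was 1 without E18 replicate 1 or E18 replicate 2, 4 without adult replicate 3, and 1 to 9 over the settings. Genes called over the whole array ran from 63 to 4916 over the same settings. The 2 that fell were Cav1, a caveolin listed here among the type I cell markers, and Pdpn, a type I surface glycoprotein used in the E18 sort. Cav1 had log2 signals of 10.61, 10.74 and 9.80 in adult arrays, against 13.82, 13.77 and 13.96 in E18 arrays, or 11.0-fold lower (-3.46, SE 0.32, limma adjusted p = 0.00374). Unlike Nfib and Nfia, Cav1 was lowest in adult replicate 3 among the adult arrays. Pdpn was 4.82-fold lower (-2.27, SE 0.29, limma adjusted p = 0.00924), and it did not pass without E18 replicate 1 or E18 replicate 2 (limma adjusted p = 0.0582 and 0.0747), or with these averaged (limma adjusted p = 0.0658).

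Of genes linked to NFI factors in other mouse tissues, 14 of 16 were tested, with 1 lower, 1 higher and 12 not called, against 5.98% of all genes called either way, and a median of -0.55. At an unadjusted limma p under 0.05 there were 5 lower and 1 higher, where 2883 of all 13335 genes tested passed in either direction. The number called was 0 without adult replicate 2, E18 replicate 1 or E18 replicate 2, 1 without adult replicate 1 and 4 without adult replicate 3. Over the settings it ran from 0 to 8, while genes called over the whole array ran from 63 to 4916. Eno3, the muscle enolase that Nfix activates in mouse fetal muscle, rose 3.73-fold, with log2 signals of 9.76, 9.88 and 9.62 in adult arrays, against 7.54, 8.05 and 7.96 in E18 arrays (1.90, SE 0.31, limma adjusted p = 0.0171). It did not pass without adult replicate 2, E18 replicate 1 or E18 replicate 2 (limma adjusted p = 0.0688, 0.126 and 0.0951), with E18 replicates 1 and 2 averaged (limma adjusted p = 0.105) or with the replicate block (limma adjusted p = 0.0543). Slc1a3, the glial glutamate transporter linked to Nfia in mouse brain, fell, with all adult arrays under the floor at log2 signals of 3.11, 2.31 and 4.39, against 7.68, 7.62 and 6.54 in E18 arrays. Against the floor Slc1a3 was at least 2.88-fold lower in adult arrays (limma adjusted p = 0.0216 on the measured values), and with low values raised to the floor the adjusted p was 0.0674. It also did not pass without adult replicate 1, adult replicate 2, E18 replicate 1 or E18 replicate 2 (limma adjusted p = 0.0566, 0.0641, 0.141 and 0.14), with E18 replicates 1 and 2 averaged (limma adjusted p = 0.136) or with the replicate block (limma adjusted p = 0.0556).

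Promoter sequence was read from RefSeq windows of the build GRCm38.p6, cut to the 250 bases before each annotated start, to show where the arm TTGGC of the NFI palindrome occurs. Windows were present for 3 members, 1 each for Nfia and Nfic and 4 for Nfix, and Nfib had no entry. Shown are Nfia, which was lower in the adult arrays, Nfic, which was not called, and Cav1 and Eno3, which had the largest fall and rise among the called genes of alveolar maturation and of those linked to NFI factors, excluding the bounded value of Slc1a3; capitals mark the arm on either strand, TTGGC on the printed strand or its reverse complement, and each sequence runs 5' to 3' on the gene's strand.
Nfia, chr4:97581693-97581942, plus strand: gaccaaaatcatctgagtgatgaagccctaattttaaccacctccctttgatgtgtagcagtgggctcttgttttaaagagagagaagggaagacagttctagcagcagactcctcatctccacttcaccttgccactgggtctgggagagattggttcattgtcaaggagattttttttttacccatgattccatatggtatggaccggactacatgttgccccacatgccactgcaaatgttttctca
Nfic, chr10:81427174-81427423, minus strand: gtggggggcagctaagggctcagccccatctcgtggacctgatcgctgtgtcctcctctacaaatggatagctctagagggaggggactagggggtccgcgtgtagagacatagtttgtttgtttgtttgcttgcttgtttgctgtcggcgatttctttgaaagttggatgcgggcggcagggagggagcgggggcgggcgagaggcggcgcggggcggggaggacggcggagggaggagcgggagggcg
Cav1, chr6:17306085-17306334, plus strand: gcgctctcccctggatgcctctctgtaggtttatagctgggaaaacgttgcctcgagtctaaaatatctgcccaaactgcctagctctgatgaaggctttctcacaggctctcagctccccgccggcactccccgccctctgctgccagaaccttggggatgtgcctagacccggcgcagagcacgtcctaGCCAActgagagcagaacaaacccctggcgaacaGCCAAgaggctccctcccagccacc
Eno3, chr11:70656926-70657175, plus strand: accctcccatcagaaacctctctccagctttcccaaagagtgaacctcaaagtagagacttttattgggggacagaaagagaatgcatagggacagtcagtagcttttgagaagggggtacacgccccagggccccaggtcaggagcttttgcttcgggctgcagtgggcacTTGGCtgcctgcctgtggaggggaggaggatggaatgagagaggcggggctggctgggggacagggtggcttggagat

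Neither the Nfia nor the Nfic window held the arm. It began 78 bases before the start in Eno3, on the printed strand, and 59 and 25 bases before it in the Cav1 window shown, both on the other strand. The other Cav1 window, chr6:17307390-17307639, did not hold the arm, and neither did the Slc1a3 window, while the Pdpn window held it. Of the 4 Nfix windows 2 held it. The arm was found on either strand in 41.5% of 32851 RefSeq windows of this length, so its presence is common. These matches describe letters in short windows and not bound sites.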

How the data were processed

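Signals of 6 arrays, 3 adult and 3 E18, were analysed, grouped by the sample titles. The deposited values are linear signal intensity per probe set, for which the submitters' processing notes name MAS5 and Affymetrix Expression Console; their versions and the probe annotation used are not given in the sources used here. Each array had been scaled by the authors, since its mean without the lowest and highest 2% of the deposited values was 500.003 or 500.004. All values were above 0, and log2 was taken here of the signals as they stood, with neither a pseudocount nor another normalization.

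Of 45101 probe sets 64 were controls, 34945 had 1 symbol in the array's gene table, 932 several and 9160 none. A gene or probe set was tested if it reached the 40th percentile of its array on at least 3 of 6 arrays. The comparison of the groups used limma 3.58.1 under R 4.3.3 (eBayes with an intensity trend, Benjamini-Hochberg over all tested, threshold 0.05). Pairs of probe sets were compared by exact permutation. No set test was run, and lists are described by counts and medians. The highest share of identical values between any 2 arrays was 0.00222%. Arrays carry no read depth, and the precision depends on how many there were and on the scatter among them.

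The members, lists and tests were chosen with earlier results of these data known. Besides the members, the text names the 4 genes closest in profile to each member (predicted clones left out). From each of 3 lists it also names up to 4 called members in order of size, or else the 2 brightest. Sftpc, Lyz2, Epcam, Nkx2-1, Krt19, Tie1 and Wt1 were added after their values were seen. On simulated data with the means and SDs of the 13335 genes, 2%, 34%, 78% and 86% of 50 changed genes were called at log2 sizes of 1, 2, 4 and 6. No other genes were changed there, against 798 called in the data. Since the adjustment depends on how many genes change, these shares do not measure recovery in this comparison. The 19 alternatives covered scaling, filter, pseudocount, floor, probe set choice, variance prior, array weights, batch and replicate terms and each array left out.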

Additional observations from a re-analysis of the deposited data

How the results depend on the processing

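With each array left out in turn the differences ranged from -3.91 to -2.60 for Nfib, -2.66 to -1.92 for Nfia, -0.55 to 0.19 for Nfic and -0.56 to 0.59 for Nfix, the genes called from 66 to 2770 and the NFI probe sets called from 0 to 11. Genes called numbered 4916 with array weights, 492 with a replicate block, 2996 in replicates 1 and 2 only and 63 with E18 replicates 1 and 2 averaged, and NFI probe sets called numbered 10, 1, 11 and 0 in these settings and 1 without the intensity trend. Same-numbered samples did not deviate together (correlations of deviations 0.04, -0.14 and -0.06), but 3 arrays per group cannot exclude a pairing by number. Over the genes tested, correlations between arrays were 0.921 to 0.983 within E18 and 0.777 to 0.913 within adult arrays. Whether the E18 arrays are 3 independent samples, as labelled, was not tested. With the replicate block Nfib (-3.28, adjusted p = 0.0729) and Nfia (-2.22, adjusted p = 0.109) did not pass. Nfib also missed the threshold with probe sets averaged (-2.56) and E18 replicates 1 and 2 averaged (-3.08). Nfia missed it in those settings (-1.80 and -2.06), without the trend and with replicates 3 as a batch (both -2.22). The cause was not tested.

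Neither Nfic nor Nfix was called in any setting, and their signs turned. Nfic was at 0.14 after quantile normalization, 0.052 after median centring and 0.38 in replicates 1 and 2 only. Nfix was at -0.046 with probe sets averaged, and at -0.72 with array weights and -0.68 in replicates 1 and 2 only. Probe sets turned with array weights for 1450661_x_at (0.13), 1436363_a_at (-0.56), 1436364_x_at (-0.62) and 1459909_at (-0.15), and 1436364_x_at in replicates 1 and 2 only (-0.77). Left-out arrays gave -0.90 to 0.084 for 1416293_at, -1.70 to 0.092 for 1423493_a_at, -0.65 to 0.10 for 1450661_x_at and -0.55 to 0.66 for 1436364_x_at. Of genes near Nfic and Nfix, Tnrc6b and Cdkn1b turned after quantile normalization (0.026 and 0.055), median centring (0.083 and 0.10) and averaging of probe sets (0.22 and 0.50), Slc7a4 after quantile normalization (0.14), Cox4i2 with low values raised to the floor (0.17), and Gng4 and Atat1 with array weights (-0.24 and -0.33). In replicates 1 and 2 only Tnrc6b was at 0.41, Cdkn1b 0.35, Cox4i2 0.39, Ccdc22 0.33, Gng4 -0.36 and Atat1 -0.30. With arrays left out they ranged from -0.56 to 0.22 for Tnrc6b, -0.49 to 0.21 for Cdkn1b, -0.70 to 0.19 for Cox4i2, -0.61 to 0.19 for Ccdc22, -0.31 to 0.61 for Gng4, -0.25 to 0.70 for Atat1, -0.76 to 0.33 for Slc7a4 and -0.82 to 0.30 for Zfp974.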
